A study of Mus musculus with 21 samples.

Results

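Bulk RNAseq of neocortex was used to compare 10 genes of fatty acid synthesis and desaturation between rNLS8 mice and control littermates. The members were the table entries with the symbols Acly, Acaca, Fasn, Scd1, Scd2, Elovl6, Fads1, Fads2, Acsl3 and Me1, which is 10 of 48474 entries, and all 10 passed the filter on low counts. The 21 mice comprised 11 controls labelled WT and 10 rNLS8 mice labelled TG. rNLS8 mice carry a tTA driver under the neurofilament heavy chain promoter (NEFH-tTA line 8) together with a tetO-hTDP-43ΔNLS transgene (line 4) on a C57BL/6J background, so that, once doxycycline is withdrawn, neurons and few other cells make human TDP-43 with a defective nuclear localization signal. The series text calls the controls monogenic, so a mouse labelled WT may carry 1 of the 2 transgenes. Every mouse, control or rNLS8, had been injected into a cerebral ventricle with a non-targeting ASO (antisense oligonucleotide; 350 µg in 10 µL) when 17 to 19 weeks old and was fed doxycycline at 200 mg/kg until 2 weeks after the injection. Tissue was taken after 3 weeks without doxycycline. The mice came from independent cohorts, A with 4 WT and 3 rNLS8 mice and B with 7 WT and 7 rNLS8 mice, and sex was not given.

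De novo fatty acid synthesis starts in the cytosol from citrate, which ATP citrate lyase (Acly) cleaves to acetyl-CoA. Acetyl-CoA carboxylase (Acaca) makes malonyl-CoA, and fatty acid synthase (Fasn) builds palmitate from both with NADPH, part of which comes from malic enzyme (Me1). Elovl6 lengthens palmitate to stearate, the stearoyl-CoA desaturases Scd1 and Scd2 put in the first double bond to make oleate and palmitoleate, and Fads1 and Fads2 desaturate the longer polyunsaturated chains. Acsl3 attaches coenzyme A to fatty acids and is known for its place at nascent lipid droplets. SREBP transcription factors drive most of these genes, and in brain the pathway supplies oligodendrocytes with the acyl chains of myelin.

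The depth was even, with total counts per mouse from 20700912 to 22263809. The labels name neocortex, while a legend in the study names hippocampus for such mice, and hippocampal markers were not checked. All 7 neocortex markers listed for this check were detected, with a summed level of 336 to 449 CPM (counts scaled to library size) in WT and 345 to 428 CPM in rNLS8 mice. Adipocyte markers, which would accompany lipogenic adipose tissue, summed to at most 0.385 CPM, and Lep was at 0 in every mouse. Counts were normalized by TMM, which corrects library size for composition, and compared by the quasi-likelihood test of edgeR, in which cohort was a covariate. At an adjusted p-value under 0.05, 8154 of 18248 genes differed between the genotypes, which is 44.7% of those tested, with 21.7% lower and 23% higher in rNLS8 mice.

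Of the 10 members, 6 were lower in rNLS8 mice (Fasn, Scd1, Scd2, Fads1, Fads2 and Acsl3), 1 was higher (Elovl6) and 3 did not pass the test (Acly, Acaca and Me1). These 7 of 10 stand beside the 44.7% of all genes that differed, the 6 lower beside 21.7%, and the 1 higher beside 23%. The synthase and the desaturases were thus lower, while Acly and Acaca, upstream of the synthase, were not found to differ. The median log2 fold change of the 10 members was -0.18, beside a median of -0.00 over all genes tested. Among the members only Fasn had groups without any overlap, as did 7.65% of all genes. In bulk tissue, fewer cells of a type and less RNA per cell cannot be told apart.

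**Figure D1:**
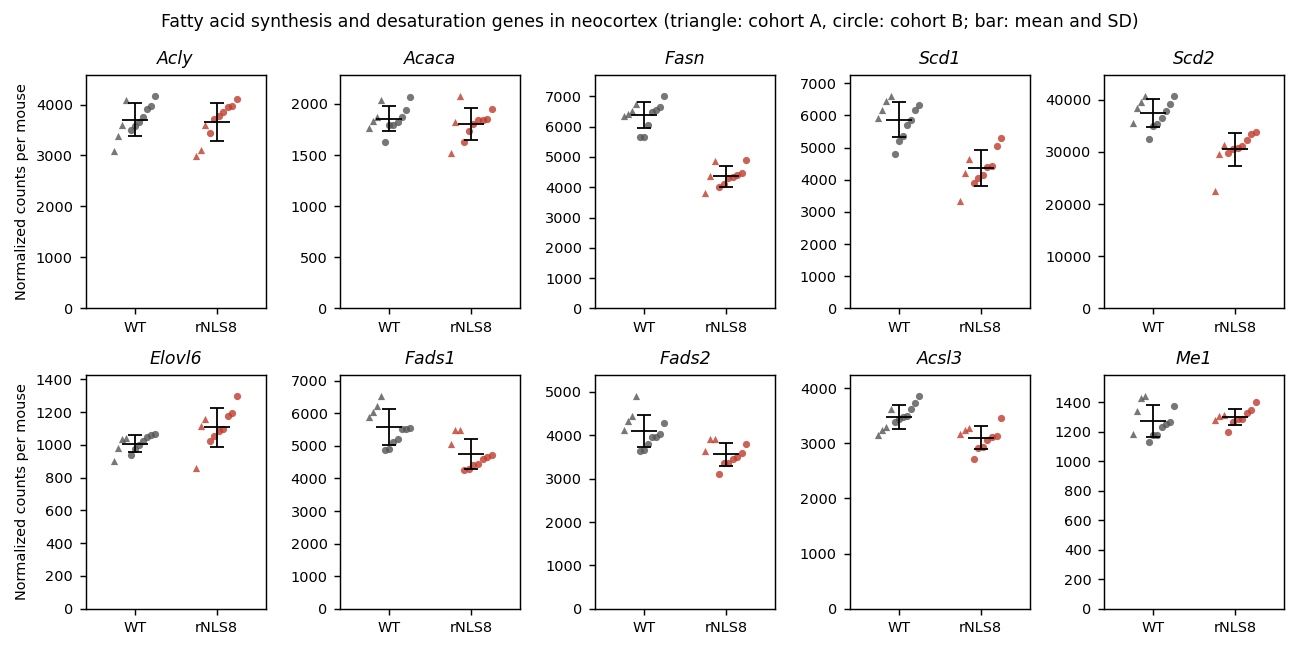
Normalized counts of the 10 members in each mouse, with 11 WT mice in grey and 10 rNLS8 mice in red, triangles for cohort A, circles for cohort B, and bars for the mean and SD. Sideways position within a group only separates the points. All 10 rNLS8 mice lie below every WT mouse for Fasn, while the groups of Acly, Acaca and Me1 lie over each other.

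Fasn (chr11:120805958-120825166, GRCm38), the enzyme that assembles palmitate, had the largest change among the members. Its normalized counts ran from 5663 over a median of 6486 to 7014 in WT mice, and from 3808 over 4356 to 4893 in rNLS8 mice. The highest rNLS8 mouse was thus below the lowest WT mouse. The means were 6373 ± 426 (SD, n = 11) in WT and 4354 ± 340 (SD, n = 10) in rNLS8 mice. On the log2 scale the difference of -0.55 (SE 0.048, 95% confidence interval -0.65 to -0.45, adjusted p = 2.47e-09) exceeded the spread within either group, and the level fell by 31.6%. The difference was -0.56 in cohort A and -0.54 in cohort B.

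Acly and Acaca, which lead from citrate to the substrates of Fasn, did not pass the test. Acly (chr11:100476352-100528000) had 3091 to 4171 normalized counts with a median of 3657 in WT mice, and 2987 to 4117 with a median of 3739 in rNLS8 mice. The groups covered nearly the same range, and the log2 difference of -0.03 (SE 0.051, adjusted p = 0.616) had a 95% confidence interval of -0.14 to 0.07. Acaca (chr11:84129635-84401651), which sets the supply of malonyl-CoA, ran from 1632 over 1832 to 2063 in WT and from 1516 over 1829 to 2079 in rNLS8 mice. Here too the groups overlapped throughout, with a log2 difference of -0.04 (SE 0.050, adjusted p = 0.573) and an interval of -0.14 to 0.07. Both signs turned positive under scaling by library size only (0.04 for each gene), so that no direction can be read for Acly or Acaca.

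Me1 (chr9:86581363-86695914), the cytosolic malic enzyme, had 1133 to 1442 normalized counts with a median of 1253 in WT mice and 1199 to 1404 with a median of 1297 in rNLS8 mice. The rNLS8 mice lay within the range of the WT mice. The log2 difference was 0.04 (SE 0.043, 95% confidence interval -0.05 to 0.13, adjusted p = 0.532). With scaling by library size only, which moved the median of all genes by 0.08, Me1 passed the test as higher (0.11, adjusted p = 0.0323).

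**Figure D2:**
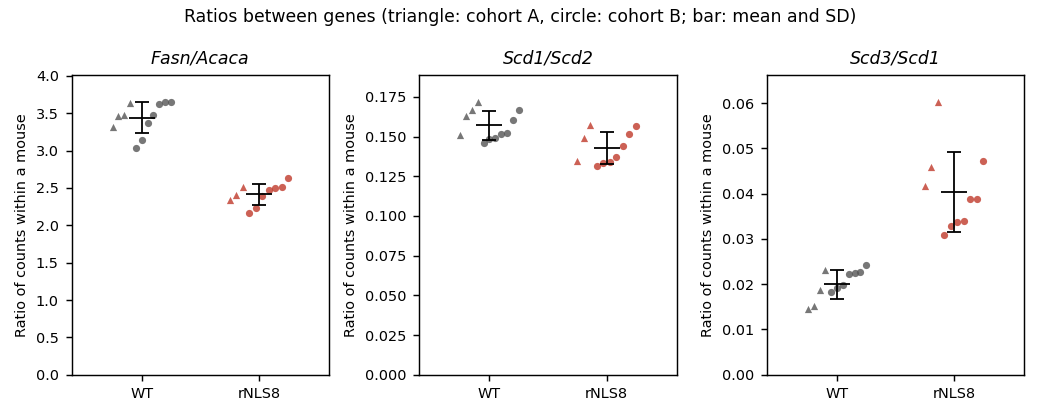
Ratios of raw counts within each mouse for Fasn to Acaca, Scd1 to Scd2 and Scd3 to Scd1, with WT mice in grey, rNLS8 mice in red, triangles for cohort A, circles for cohort B, and bars for the mean and SD. The Fasn to Acaca ratio of every rNLS8 mouse (at most 2.64) is below that of every WT mouse (at least 3.03), and the Scd3 to Scd1 ratio of every rNLS8 mouse is above that of every WT mouse.

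Because ratios of counts within a mouse do not depend on library size, Fasn was also set against its partners in each mouse, as a description without a test. The ratio of Fasn to Acaca counts was 3.44 ± 0.209 (SD, n = 11; range 3.03 to 3.65) in WT and 2.41 ± 0.143 (SD, n = 10; range 2.16 to 2.64) in rNLS8 mice. The ratio of Fasn to Acly was 1.51 to 2.08 in WT and 1.04 to 1.40 in rNLS8 mice, and that of Fasn to Elovl6 was 5.30 to 7.12 and 3.16 to 4.45. None of these 3 ratios overlapped between the genotypes. Fasn, which is in all 3, had groups without overlap by itself, so the ratios are not separate from its own difference. The share of other gene pairs without overlap was not computed, and a ratio does not say which of its genes changed.

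Elovl6 (chr3:129532386-129638495), the elongase that acts on the product of Fasn, was the 1 member that rose. WT mice had 903 to 1069 normalized counts with a median of 1024, and rNLS8 mice had 861 to 1298 with a median of 1106. In rNLS8 mice 7 values lay above every WT mouse and 1, that of rNLS8 replicate 9, below every WT mouse. The log2 difference was 0.13 (SE 0.052, adjusted p = 0.0428), a level higher by 9.45%. This call was the least firm among the 7. It was lost in 12 of the 21 fits that left out 1 mouse (WT replicate 2, 3, 4, 6, 7, 8 or 11, or rNLS8 replicate 1, 2, 3, 8 or 10), with adjusted p-values up to 0.0904. It became 0.17 (adjusted p = 0.00261) without rNLS8 replicate 9, and was lost as well with the level of Xist, a proxy for sex, as covariate (0.13, adjusted p = 0.0631).

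Both stearoyl-CoA desaturase genes of the list fell. Scd1 (chr19:44394450-44407709) ran from 4811 over a median of 5928 to 6611 normalized counts in WT mice and from 3347 over 4310 to 5288 in rNLS8 mice. In 8 of 10 rNLS8 mice it was below every WT mouse. The log2 difference was -0.43 (SE 0.069, adjusted p = 1.85e-05), so that the level fell by 25.7%.

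Scd2 (chr19:44293676-44306864), the main stearoyl-CoA desaturase of the brain, ran from 32406 over 37876 to 40740 normalized counts in WT mice. In rNLS8 mice it ran from 22416 over 30946 to 33766, and 8 of 10 rNLS8 mice were again below every WT mouse. The log2 difference was -0.30 (SE 0.058, adjusted p = 0.000161), so that the level fell by 18.8%. The lowest value belonged to rNLS8 replicate 9 of cohort A, which stood apart from the next rNLS8 mouse at 29574, and without this mouse the difference was -0.25 (adjusted p = 6.31e-05). The same mouse was the lowest of the rNLS8 mice for 6 members (Acly, Acaca, Fasn, Scd1, Scd2 and Elovl6) and the highest for Fads1 and Fads2. Without it, 8363 genes differed, and of the members again 6 were lower and 1 was higher.

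Within a mouse, Scd1 and Scd2 counts stood in a ratio of 0.157 ± 0.0090 (SD, n = 11) in WT and 0.143 ± 0.0100 (SD, n = 10) in rNLS8 mice, with overlapping ranges of 0.146 to 0.172 and 0.132 to 0.157. Scd3, a neighbouring gene of the same family and not a member, was higher in rNLS8 mice. It had 93.5 to 137 normalized counts with a median of 116 in WT and 136 to 202 with a median of 173 in rNLS8 mice, so that 9 of 10 rNLS8 mice were above every WT mouse. Its log2 difference was 0.57 (SE 0.088, adjusted p = 1.12e-05). The ratio of Scd3 to Scd1 counts was 0.0145 to 0.0242 in WT and 0.0309 to 0.0603 in rNLS8 mice, without overlap. The Scd genes are close copies, and how reads that fit several of them were divided was not stated, so the low Scd3 counts are uncertain.

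Fads1 and Fads2, the desaturases of polyunsaturated fatty acids, are neighbours on chromosome 19. Fads1 (chr19:10182877-10196874) ran from 4868 over 5505 to 6527 normalized counts in WT and from 4260 over 4625 to 5493 in rNLS8 mice, a log2 difference of -0.22 (SE 0.036, adjusted p = 2.42e-05). Fads2 (chr19:10062765-10101503) ran from 3646 over 4021 to 4904 in WT and from 3104 over 3547 to 3909 in rNLS8 mice, a log2 difference of -0.19 (SE 0.042, adjusted p = 0.000545). For each of them 7 of 10 rNLS8 mice were below every WT mouse, and the rest overlapped. Part of the overlap lay between cohorts, since Fads1 was at 6169 ± 276 (SD, n = 4) in WT mice of cohort A and 5238 ± 291 (SD, n = 7) in those of cohort B. In rNLS8 mice Fads1 was at 5346 ± 240 (SD, n = 3) in cohort A and 4479 ± 181 (SD, n = 7) in cohort B. Within either cohort the genotypes did not overlap for this gene. In cohort A, with 4 WT and 3 rNLS8 mice, the same held for Fasn, Scd1, Scd2 and Fads2. The share of all genes apart within a cohort was not computed. The ratio of Fads1 to Fads2 counts was 1.36 ± 0.069 (SD, n = 11) in WT and 1.33 ± 0.067 (SD, n = 10) in rNLS8 mice.

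Acsl3 (chr1:78657825-78707743), the acyl-CoA synthetase, ran from 3144 over 3475 to 3854 normalized counts in WT and from 2722 over 3126 to 3465 in rNLS8 mice. Only 6 of 10 rNLS8 mice were below every WT mouse. The log2 difference was -0.17 (SE 0.044, adjusted p = 0.00348), the smallest among the members that fell, and it did not pass the test with scaling by library size only (-0.09, adjusted p = 0.111). A further entry for a copy of this gene held 3.27% of its counts and was lower as well (-0.32, SE 0.11, adjusted p = 0.0152). This entry did not pass in cohort A alone (-0.41, adjusted p = 0.134) or cohort B alone (-0.28, adjusted p = 0.120). It also did not pass with the neuron marker level as covariate (-0.35, adjusted p = 0.462). On the annotation, 5.60% of the exon bases of Acsl3 are shared with Utp14b on the same strand, and the reads of that stretch cannot be assigned to either gene. Antisense overlaps were smaller, at 0.529% of the exon bases of Elovl6 and 0.780% of those of Me1.

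**Figure D3:**
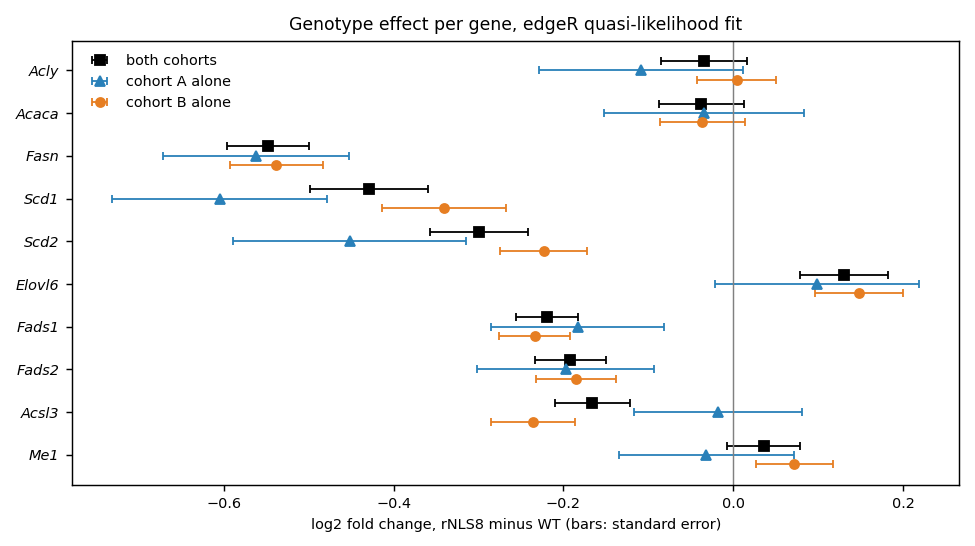
Log2 fold change of each member, rNLS8 minus WT, from the edgeR fit over both cohorts (black squares), cohort A alone (blue triangles) and cohort B alone (orange circles), with bars for the standard error. Fasn lies near -0.55 in all 3 fits, Scd1 and Scd2 lie further left in cohort A, and Acsl3 lies near 0 in cohort A.

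In cohort A alone, 11.8% of genes differed, and 2 members passed the test. They were Fasn (-0.56, adjusted p = 0.00869) and Scd1 (-0.60, adjusted p = 0.0120). Scd2 (-0.45, adjusted p = 0.0555), Fads1 (-0.18, adjusted p = 0.275) and Fads2 (-0.20, adjusted p = 0.252) did not pass in this smaller cohort. In cohort B alone, 39.1% of genes and the same 7 members as in both cohorts passed it, with Scd1 at -0.34 (adjusted p = 0.00108), Scd2 at -0.22 (adjusted p = 0.00194) and Acsl3 at -0.24 (adjusted p = 0.000898). Acsl3 was at -0.02 in cohort A (adjusted p = 0.934). Whether the effect differed between cohorts was tested with their interaction, which 0 members and 0% of all genes passed with adjustment in edgeR, and 0 members and 1 gene of 18247 in DESeq2. At an unadjusted p-value under 0.05, 5.64% of genes and 3 members passed, which were Scd1 (-0.29 in cohort A relative to B, p = 0.0414, adjusted p = 0.871), Scd2 (-0.26, p = 0.0322, adjusted p = 0.855) and Acsl3 (0.19, p = 0.0446, adjusted p = 0.874). Without rNLS8 replicate 9 these values were -0.17 for Scd1 and -0.13 for Scd2.

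To compare levels between genes, counts were divided by the length of the merged exons, and by the effective library size, as CPM per kilobase. On this scale Scd2 led by a wide margin in WT mice with 320 ± 22.7 (SD, n = 11). Fads2 (58.3 ± 5.27), Scd1 (56.1 ± 5.30) and Fads1 (54.2 ± 5.27) came next and did not differ beyond their spread. They were followed by Acsl3 (37.4 ± 2.32), Acly (32.8 ± 2.86) and Fasn (27.2 ± 1.82), where Acsl3 overlapped with Acly and Acly with Fasn. Me1 (15.5 ± 1.31), Elovl6 (7.33 ± 0.382) and Acaca (5.08 ± 0.336) had the lowest levels and did not overlap with each other. The merged exons count every annotated transcript, 17074 bases for Acaca, which understates the level of a gene with long alternative ends. In rNLS8 mice Scd2 was at 261, Fads2 at 50.6, Fads1 at 46.1, Scd1 at 41.6 and Fasn at 18.6, so that Scd1 and Fads1 changed places within their spread. The coefficient of variation between mice was 5.22% to 9.73% in WT and 4.13% to 12.8% in rNLS8 mice.

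Promoter sequences from RefSeq (GRCm38.p6) were available for 7 of the 10 members, with 8 start sites, and not for Scd1, Scd2 and Fads1. The 250 bases before the start are shown for 3 members, namely Fasn, which fell, Acly, which was not found to differ, and Elovl6, which rose. They read 5′ to 3′ towards the gene, and capitals mark the CCAAT box (CCAAT or ATTGG) and the GC box (GGGCGG or CCGCCC). The windows are chr11:120824548-120824797 on the minus strand for Fasn, chr11:100528001-100528250 on the minus strand for Acly and chr3:129532136-129532385 on the plus strand for Elovl6. The Fasn start used here lies inside the span of the gene given above. The start used for Acaca (window chr11:84195188-84195437) and the second start of Me1 (window chr9:86687278-86687527) also lie inside their genes.
Fasn: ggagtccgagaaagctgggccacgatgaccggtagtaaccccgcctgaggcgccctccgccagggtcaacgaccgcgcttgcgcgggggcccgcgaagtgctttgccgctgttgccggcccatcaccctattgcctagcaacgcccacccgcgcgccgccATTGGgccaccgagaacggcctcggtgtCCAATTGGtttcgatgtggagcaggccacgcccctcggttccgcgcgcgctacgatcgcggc
Acly: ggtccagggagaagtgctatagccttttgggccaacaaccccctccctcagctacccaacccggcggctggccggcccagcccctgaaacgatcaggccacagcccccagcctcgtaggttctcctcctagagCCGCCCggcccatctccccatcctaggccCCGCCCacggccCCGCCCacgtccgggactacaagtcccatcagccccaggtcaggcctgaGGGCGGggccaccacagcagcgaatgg
Elovl6: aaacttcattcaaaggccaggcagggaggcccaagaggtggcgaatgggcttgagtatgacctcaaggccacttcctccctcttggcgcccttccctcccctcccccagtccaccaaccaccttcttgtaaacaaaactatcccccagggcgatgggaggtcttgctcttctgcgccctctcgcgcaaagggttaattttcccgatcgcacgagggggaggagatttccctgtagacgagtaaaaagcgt
The Fasn window held a CCAAT and an overlapping ATTGG at positions -62 and -59 from the start and another ATTGG at -90, and no GC box. Acly had 4 GC boxes, the nearest at -27, and no CCAAT box, and the Elovl6 window held neither. Over all 8 start sites, CCAAT was found on either strand in 3 (Fasn, Acsl3 and the second start of Me1), beside 33.8% of 32851 promoters, and the GC box in 4 (Acsl3, Me1, Acly and Fads2), beside 32.7%. The sterol regulatory element TCACNCCAC, which SREBP proteins bind, was in 0 of 8 windows and in 1.05% of all promoters. The E-box CACGTG, a binding motif of basic helix-loop-helix factors, was in 0 of 8 and in 6.02%. No match says only that these letters are not in these windows, and the windows of Fasn, Acaca and the second Me1 start lie inside the genes.

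Of 15 regulators of lipogenic transcription, 4 were higher, 5 were lower and 6 did not pass the test, with a median log2 fold change of -0.01. The 2 SREBP genes moved in opposite directions. Srebf1, whose product mainly drives fatty acid genes, had 1171 to 1510 normalized counts with a median of 1378 in WT and 1365 to 1817 with a median of 1488 in rNLS8 mice (0.17, SE 0.049, adjusted p = 0.00764), and its groups overlapped. Srebf2, whose product mainly drives sterol genes, had 5272 to 6350 with a median of 5660 in WT and 3893 to 4820 with a median of 4259 in rNLS8 mice (-0.43, SE 0.041, adjusted p = 7.26e-09), without overlap. With the neuron marker level as covariate, neither passed the test, and Srebf2 was at -0.20 (adjusted p = 0.159) and Srebf1 at -0.07 (adjusted p = 0.753). These are transcript levels, and the cleavage that activates both proteins was not measured.

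Scap, the escort of SREBP proteins, was higher (0.18, adjusted p = 0.000537). Insig1, which retains them and is itself an SREBP target, was lower without overlap between groups (-0.42, adjusted p = 2.41e-07), and Insig2 was lower by a smaller step (-0.10, adjusted p = 0.0263). The Insig2 call was lost in cohort B alone (adjusted p = 0.118) and without rNLS8 replicate 6 or 8 (adjusted p up to 0.0621), among other settings. Of the proteases that cleave them, Mbtps2 fell (-0.20, adjusted p = 0.00977) and Mbtps1 was at -0.01 (adjusted p = 0.892). Among nuclear receptors, Nr1h2, which encodes LXRβ, rose (0.19, adjusted p = 0.00364), its partner Rxra fell (-0.16, adjusted p = 0.00300), and Nr1h3, which encodes LXRα, was at -0.01 (adjusted p = 0.965). The coactivator gene Ppargc1b rose (0.36, adjusted p = 0.00119). In cohort A alone, Srebf2 and Insig1 passed the test, while Srebf1, Scap, Insig2, Mbtps2, Nr1h2, Rxra and Ppargc1b kept their direction with adjusted p-values of 0.129 to 0.436. Mlxipl (0.23), its partner Mlx (-0.08), Mid1ip1 (-0.08), which encodes an activator of acetyl-CoA carboxylase, and its relative Thrsp (0.14) did not pass the test.

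**Figure D4:**
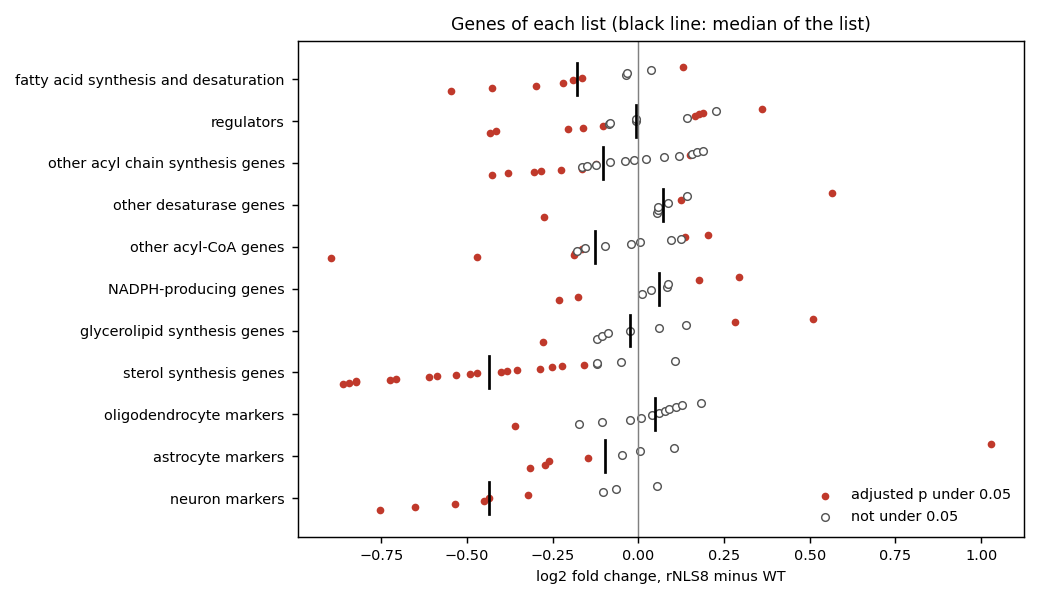
Log2 fold change, rNLS8 minus WT, of every tested gene of each list, with filled red points for an adjusted p-value under 0.05, open points for the rest, and a black line for the median of the list. The members spread from -0.55 (Fasn) to 0.13 (Elovl6), while 21 of 22 genes of the sterol list lie below 0.

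Of the other genes of acyl chain synthesis and elongation, 20 of 22 were tested, 1 rose, 7 fell and 12 did not pass, with a median of -0.10. Acss2, which makes acetyl-CoA from acetate and so offers a route beside Acly, fell from 1070 ± 77.5 (SD, n = 11) to 791 ± 28.6 (SD, n = 10) normalized counts (-0.43, adjusted p = 2.27e-09). Hacd3 (-0.29, adjusted p = 1.26e-06) and Hsd17b12 (-0.23, adjusted p = 7.45e-05), which carry out the dehydration and ketoreduction steps after the elongases, fell as well. These 3 genes were named for the smallest adjusted p-values of their list, and their groups did not overlap, as for 7.65% of all genes. Of the other desaturase genes, 8 of 9 were tested, 2 rose, 1 fell and 5 did not pass, with a median of 0.07. Besides Scd3, these were the ceramide desaturase Degs1 (0.12, adjusted p = 0.0232) and the cytochrome Cyb5b (-0.28, adjusted p = 1.09e-06).

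Among 14 other acyl-CoA synthetase and acyl-CoA handling genes, 2 rose, 5 fell and 7 did not pass, with a median of -0.13. Acsl4, which prefers arachidonate, fell by 0.47 on the log2 scale (adjusted p = 2.07e-06), Acsl6, a neuronal acyl-CoA synthetase, fell by 0.19 (adjusted p = 0.000143), and Fabp7, an astrocytic fatty acid binding protein, fell by 0.90 (adjusted p = 1.10e-05). Of 8 NADPH-producing genes, 2 rose, 2 fell and 4 did not pass, with a median of 0.06. They included Pgls of the pentose phosphate pathway (0.29, adjusted p = 0.00109), Idh1 (-0.23, adjusted p = 0.000935) and the astrocytic Aldh1l1 (-0.18, adjusted p = 0.00209). Of 9 glycerolipid synthesis genes, 2 rose, 1 fell and 6 did not pass, with a median of -0.02. The acyltransferase gene Agpat3 fell (-0.28, adjusted p = 9.33e-08), while Lpin2 (0.28, adjusted p = 3.81e-06) and the low Agpat2 (0.51, adjusted p = 0.0229) rose. Agpat2 was at -0.0014 in cohort A (adjusted p = 0.999) and 0.80 in cohort B (adjusted p = 0.000891), and the interaction did not pass with adjustment (-0.83, p = 0.0226, adjusted p = 0.853). In cohort A alone, Hacd3, Hsd17b12, Degs1, Acsl6, Pgls, Aldh1l1, Agpat3 and Lpin2 kept their direction without passing, with adjusted p-values of 0.0812 to 0.573. Acss2, Cyb5b, Scd3, Acsl4, Fabp7 and Idh1 passed there.

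The sterol synthesis genes, which share SREBP control with the members, had the lowest median of the lipid lists at -0.44, with 18 of 22 lower and 4 not past the test. Fdft1, the first enzyme committed to sterols (-0.82, adjusted p = 2.11e-12), and Hmgcs1, the HMG-CoA synthase (-0.85, adjusted p = 2.48e-10), both had groups without overlap. Both were named for their small adjusted p-values in this list, and both differences were larger in size than that of Fasn (-0.55). The lists were chosen with results of these mice known, so their counts are a description.

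Markers of other cell types were read in the same mice. Oligodendrocyte markers, which belong to the cells that make myelin lipid, summed to 4648 to 7806 CPM in WT and 4461 to 7943 CPM in rNLS8 mice, and of 12 only Ugt8a differed, as lower. Astrocyte markers summed to 5043 to 6334 CPM in WT and 4496 to 5659 CPM in rNLS8 mice, with 4 of 8 lower and 1, Gfap, higher. Neuron markers summed to 10271 to 12917 CPM in WT and 7605 to 9040 CPM in rNLS8 mice without overlap, with 6 of 9 lower. Of 6 microglia markers, 4 were higher and 1 was lower, with sums of 314 to 357 CPM in WT and 329 to 448 CPM in rNLS8 mice. Choroid plexus markers ran from 14.7 to 2171 CPM in WT and from 24.2 to 1117 CPM in rNLS8 mice, and the log2 differences of the 5 genes ran from -0.10 to 0.40 without passing the test. Markers of cerebellum and striatum summed to 60.7 to 391 CPM in WT and 47.1 to 290 CPM in rNLS8 mice, and 2 of the 3 tested were lower. With the neuron marker level as covariate, which is nearly tied to genotype, 2699 genes differed, and of the members Fasn, Scd1 and Fads1 passed the test as lower. Scd2 (-0.34, adjusted p = 0.148), Fads2 (-0.22, adjusted p = 0.197) and Acsl3 (-0.24, adjusted p = 0.178) did not pass in this fit, although their log2 differences were no smaller in size than without the covariate. With the oligodendrocyte or the astrocyte marker level as covariate, 6 members were lower and 1 was higher, as without it, and 8275 and 8351 of all genes differed. Each covariate was the mean log2 level of its markers, in which every marker weighs alike. In the astrocyte mean the rise of Gfap (1.03) stands against the falls, the largest that of Slc1a2 (-0.32). That fit therefore does not adjust for the lower astrocyte sum. The part that cell composition has in the differences of the members was not tested.

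The members were also related to the marker level among mice of the same genotype and cohort, as the slope on the mean log2 level of the markers. For oligodendrocyte markers, 0 members and 0.734% of genes passed edgeR's test with adjustment, and 2 members and 9.89% of genes at an unadjusted p-value under 0.05. These were Scd1 with a slope of 0.41 (SE 0.14, p = 0.00893, adjusted p = 0.308) and Scd2 with a slope of 0.33 (SE 0.12, p = 0.0127, adjusted p = 0.355), while Fasn had a slope of -0.04 (SE 0.12, adjusted p = 0.917). When the median over the markers replaced their mean, 0 members and 6.93% of genes passed without adjustment. For astrocyte markers, 0 members and 0.0219% of genes passed with adjustment, and 1 member and 15.9% of genes without. This was Scd1 with a slope of 1.15 (SE 0.31, p = 0.00136, adjusted p = 0.0924), which passed with adjustment when rNLS8 replicate 1 was left out, as did 1334 genes.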

How the data were processed

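RNA of neocortex from 21 mice was sequenced at BGI from an mRNA library with paired reads, and the authors aligned the reads to GRCm38. The table they deposited holds raw read counts as whole numbers, by gene symbol, with 48474 entries in all. The submitters' processing notes name HISAT, HISAT2, Bowtie, Bowtie2 and RSEM without role or version, so the counts may be rounded estimates, and the use of strand and of reads with several hits was not stated. Entries for further copies of a symbol (2534, with 4.10% of counts) were kept.

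The tests ran in edgeR 4.0.16 (R 4.3.3). Low genes were removed with filterByExpr (minimum count of 10, minimum total of 15), which left 18248, normalized by TMM and tested two-sided with genotype and cohort in the model. P-values were adjusted by Benjamini-Hochberg over all genes tested, with a threshold of 0.05. Each standard error is the size of the log2 fold change over the root of F, and normalized counts are counts over effective library size, times its mean. At the depth of 20700912 to 22263809 counts per mouse, counting error was below the spread between mice for the members. It weighs more for genes with few counts such as Nr1h3 and Agpat2. Where nothing states otherwise, each library was taken as 1 mouse. No 2 columns were identical, and 0 columns belonged to no sample. Positions came from RefSeq and exons from GENCODE, both for GRCm38.

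The members and gene lists were chosen with earlier results of these data known. Genes named beside the members were all tested regulators and, from each other lipid list, up to 3 genes with the smallest adjusted p-value, of which 1 is not reported here. As alternatives, cohort was dropped from the model, DESeq2 1.42.0 was run with cohort and without it, and the rest were other scalings and filters, the copies removed or summed, each cohort alone, the level of Xist or of oligodendrocyte, astrocyte or neuron markers as covariate, rNLS8 replicates 8 and 9 left out together, and each mouse left out in turn. The procedures were tested on simulated counts.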

Additional observations from a re-analysis of the deposited data

Results flagged for a closer look

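For 44 genes named here, the highest and lowest of the 10 rNLS8 mice were compared with the next by Dixon's criterion, which gives the gap as a share of the group's range. Chance gives about 1 in 20 such groups, or 2.2 of 44, and 4 were found. The 11 WT mice were too many for this criterion. Scd2 was lowest in rNLS8 replicate 9, at 22416 normalized counts beside 29574 in the next mouse, a share of 0.631. Srebf1 was highest in rNLS8 replicate 8, at 1817 beside 1591 (0.500), and so was Mlxipl, at 69.0 beside 45.9 (0.529). Fabp7 was highest in rNLS8 replicate 4, at 496 beside 299 (0.618). Both rNLS8 replicate 8 and 9 belong to cohort A. Without both of these mice 7668 genes passed the test, and of the members 6 were lower and 1 was higher, as with all mice.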

How the results depend on the processing

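Fasn and Scd1 kept their direction and passed the test in all 16 alternatives and in all 21 fits that left out 1 mouse, where Fasn ran from -0.57 to -0.52 and Scd1 from -0.46 to -0.38. With 1 mouse left out, 7805 to 8363 genes were called, the members called higher numbered 0 to 1, and the members called lower stayed at 6. In cohort A alone, which has 7 mice, 2195 genes were called, with 2 members lower and 0 higher. With the neuron marker level as covariate, 2699 genes were called, with 3 members lower and 0 higher. Members called higher numbered 2 with scaling by library size only, where 8584 genes were called, and 0 with the Xist level as covariate, where 7967 were called. Members with a slope on the astrocyte markers numbered 2 without cohort in the model (Fads1 and Fads2, among 1393 genes) and 0 to 1 with 1 mouse left out. The cause of the changes with neuron markers, Xist and scaling was not tested.

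Signs turned in some settings for Acly, Acaca, Me1 and 7 other genes. Acly was at 0.042 with scaling by library size only, 0.0043 in cohort B alone, 0.015 without rNLS8 replicates 8 and 9, and 0.24 with the neuron covariate. Acaca was at 0.040 with library size only, 0.0060 without these mice and 0.087 with the neuron covariate. Me1 was at -0.032 in cohort A alone. Mbtps1 was at 0.069 with library size only, 0.00021 without cohort, 0.0064 without a filter, 0.015 in cohort B alone, 0.0070 without these mice, 0.024 with the neuron covariate and -0.027 to 0.0058 with 1 mouse left out. Nr1h3 was at 0.068 with library size only, 0.0060 without a filter, 0.18 in cohort A alone, 0.027 with Xist and -0.050 to 0.050 with 1 mouse left out. With the neuron covariate, Mlxipl was at -1.36 and passed the test as lower (adjusted p = 0.00862), although it had not passed without the covariate. Srebf1 at -0.072 and Insig2 at 0.021 with this covariate, and Agpat2 at -0.0014 in cohort A alone, had passed in the fit over all mice and did not pass here. Other named genes that lost their call with this covariate kept their sign, as Acsl4 (-0.20, adjusted p = 0.468), Fabp7 (-0.49, 0.425), Idh1 (-0.06, 0.822), Hsd17b12 (-0.10, 0.593), Hacd3 (-0.22, 0.139), Cyb5b (-0.18, 0.204), Scd3 (0.64, 0.0793), Degs1 (0.24, 0.174), Pgls (0.15, 0.648), Agpat2 (0.63, 0.414), Srebf2 (-0.20, 0.159), Scap (0.27, 0.0735), Nr1h2 (0.08, 0.766), Rxra (-0.11, 0.585), Mbtps2 (-0.05, 0.874) and Ppargc1b (0.27, 0.475). Mlx (-0.40, 0.0434) and Mid1ip1 (-0.32, 0.0401) passed as lower, and Thrsp was at -0.41 without passing.

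No paired analysis was possible because mouse numbers were not shared between genotypes. The low counts of Scd3, Mlxipl, Nr1h3 and Agpat2 limit their precision.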
